A study of Mus musculus with 4 samples.

Results

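Mitosis genes are 40 mouse genes whose products carry a cell from the end of DNA replication through chromosome segregation to the separation of the daughter cells. They were taken by name, as every probe that the array annotation gave to 1 of the 40 gene symbols. All 40 genes were on the array, with 58 probes among 39429 different probes, which carried 22327 named genes in all. By role they comprised 6 cyclins, Cdk1 and activators of the anaphase-promoting complex, 8 kinases, 8 kinetochore and centromere proteins, 9 spindle motors and microtubule proteins, 3 cytokinesis proteins, 5 proteins of chromosome structure and the transcription factor Foxm1.

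The 4 groups were Pnpla7-/- (KO) liver, wild-type (WT) liver, Pnpla7-/- (KO) white adipose tissue (WAT) and wild-type (WT) WAT, all from C57BL/6N mice aged 4 weeks. PNPLA7 is an enzyme that removes the remaining fatty acid from lysophosphatidylcholine. Each group had 1 one-colour (Cy3) array. Its RNA was a pool of equal parts from 5 animals, of which 200 ng entered the labelling reaction. A difference between 2 arrays therefore has no replicate check, animals within a pool cannot be told apart, and no test or p-value is given. The sources used here do not give the animals' sex, the fat depot or the deleted stretch of Pnpla7. The extraction protocol names liver as the tissue of origin for the WAT samples too.

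Between 65.5% and 72.6% of spots were well above background on the 4 arrays, 0 were saturated, and the arrays shared 1 slide and 1 scan. Precision is limited by the number of arrays. The markers fitted the tissue labels: the median log2 ratio of WAT over liver was -8.12 between the KO arrays and -7.68 between the WT arrays for hepatocyte markers, and 6.33 and 7.16 for adipocyte markers. The single Pnpla7 probe had a signal of 7.98 times the array's 75th percentile in KO liver, against 9.04 in WT liver, and of 0.372 in KO WAT, against 0.739 in WT WAT. As the probe's place relative to the deletion is unknown, it checks nothing, and KO below means the array labelled so. Differences are log2 ratios of KO over WT, and a gene was counted where the ratio reached 2-fold. Different probes of the same gene had a pooled SD of 0.20 in the liver ratio and 0.23 in the WAT ratio over all genes.

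Entry into mitosis depends on cyclin-dependent kinase 1 bound to cyclin A or B. Exit follows when the spindle checkpoint releases CDC20, and the anaphase-promoting complex (cyclosome) then marks cyclin B for destruction. Transcription of the genes is periodic and peaks in G2 and mitosis, when FOXM1 and the MuvB complex act at their promoters. MuvB binds an element called CHR, whose common form is TTTGAA, and NF-Y binds CCAAT boxes upstream of it. Most hepatocytes of an adult liver are quiescent, whereas the liver of a young mouse still grows. In bulk tissue, fewer cells of a type and less RNA per cell cannot be told apart.

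The promoters below are shown because these elements are the best known sequence feature shared by genes of mitosis, a feature that the rule, which goes by name, did not use. They are RefSeq sequences of the GRCm38 build, running from 250 bases before the annotated gene start to 50 bases after it, written 5′ to 3′ along the gene. Capitals mark matches to the CCAAT box, which reads ATTGG when it lies on the other strand, and matches to the element TTTGAA, which then reads TTCAAA. Cdc20 and Ube2c had the highest liver ratios among the measured genes, cyclins Ccnb1 and Ccnb2 are the B-type partners of Cdk1, and Hmmr and Kif23 had the lowest liver ratios.
Cdc20, chr4:118437294-118437593, minus strand: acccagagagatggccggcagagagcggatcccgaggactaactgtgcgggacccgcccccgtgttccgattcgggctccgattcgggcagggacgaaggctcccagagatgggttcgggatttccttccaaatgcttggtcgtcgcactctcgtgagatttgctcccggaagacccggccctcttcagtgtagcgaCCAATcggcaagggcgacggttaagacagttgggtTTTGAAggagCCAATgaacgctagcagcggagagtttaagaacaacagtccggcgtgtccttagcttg
Ube2c, chr2:164769679-164769978, plus strand: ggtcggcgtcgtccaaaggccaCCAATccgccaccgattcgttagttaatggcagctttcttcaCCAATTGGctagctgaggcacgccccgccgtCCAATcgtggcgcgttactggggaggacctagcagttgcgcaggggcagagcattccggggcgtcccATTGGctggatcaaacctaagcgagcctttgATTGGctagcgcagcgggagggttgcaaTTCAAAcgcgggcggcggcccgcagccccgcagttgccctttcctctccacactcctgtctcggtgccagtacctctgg
Ccnb1, chr13:100786437-100786736, minus strand: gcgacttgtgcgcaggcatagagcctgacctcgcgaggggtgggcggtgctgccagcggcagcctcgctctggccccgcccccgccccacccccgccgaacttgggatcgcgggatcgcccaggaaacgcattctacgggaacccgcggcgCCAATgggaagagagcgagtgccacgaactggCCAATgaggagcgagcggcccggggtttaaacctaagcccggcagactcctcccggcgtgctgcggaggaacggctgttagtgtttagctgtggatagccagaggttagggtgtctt
Ccnb2, chr9:70421505-70421804, minus strand: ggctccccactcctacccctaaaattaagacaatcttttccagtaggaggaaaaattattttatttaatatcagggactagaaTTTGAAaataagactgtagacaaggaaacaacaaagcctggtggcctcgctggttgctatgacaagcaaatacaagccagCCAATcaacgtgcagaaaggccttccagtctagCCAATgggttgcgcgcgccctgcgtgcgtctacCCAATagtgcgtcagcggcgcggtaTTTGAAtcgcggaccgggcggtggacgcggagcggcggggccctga
Hmmr, chr11:40733388-40733687, minus strand: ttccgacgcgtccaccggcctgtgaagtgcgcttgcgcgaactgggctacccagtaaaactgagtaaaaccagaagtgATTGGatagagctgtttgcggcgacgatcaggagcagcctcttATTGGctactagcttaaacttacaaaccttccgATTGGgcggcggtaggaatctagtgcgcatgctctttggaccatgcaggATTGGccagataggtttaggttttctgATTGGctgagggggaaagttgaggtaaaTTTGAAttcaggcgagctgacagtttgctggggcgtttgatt
Kif23, chr9:61946750-61947049, minus strand: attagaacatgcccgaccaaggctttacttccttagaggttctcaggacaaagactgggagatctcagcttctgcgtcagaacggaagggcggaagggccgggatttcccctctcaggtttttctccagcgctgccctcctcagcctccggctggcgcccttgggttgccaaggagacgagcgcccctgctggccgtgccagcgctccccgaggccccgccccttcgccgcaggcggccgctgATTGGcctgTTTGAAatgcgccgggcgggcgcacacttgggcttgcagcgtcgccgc

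In Cdc20 the CCAAT matches begin at positions -53 and -8 and TTTGAA lies between them at -18. Ccnb2 carries 3 CCAAT boxes at -87, -54 and -21, each 33 bases from the next, with TTTGAA at 5 and again at -167. Ccnb1 has 2 CCAAT boxes 32 bases apart, at -99 and -67, and TTTGAA is not among the letters of this window. Hmmr has 5 ATTGG matches and TTTGAA at 9, and Kif23 has ATTGG at -7 and TTTGAA at 3. Of the 6 CCAAT-type matches in Ube2c, 2 overlap as CCAATTGG. So the genes with the smallest liver ratios carried both elements, as Cdc20 and Ube2c did.

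The promoter table held 33 of the 40 genes. Kif20a, Ccna2, Tpx2, Pbk, Dlgap5, Foxm1 and Aurkb were not in it. CCAAT or ATTGG occurred in 26 of the 33 windows (78.8%), against 37.9% of the windows of 27025 genes. At least 2 such matches occurred in 51.5%, against 12.2% of all windows. TTTGAA or TTCAAA occurred in 78.8% of the mitosis genes, against 18.1% of all windows, and 24 of the 33 matches lay within 50 bases of the gene start. Both elements together were found in 23 windows (69.7%), against 7.12% of all. Median GC content was 58.7% in the mitosis genes and 52.7% over all windows. Among the 20 genes with a promoter that were at least 2-fold higher in KO liver, 13 (65%) held TTTGAA or TTCAAA. Among the 10 measured genes below 2-fold, 10 held it. The element was therefore not confined to the genes that differed most. A match describes these letters and is neither a binding site nor a cause.

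In liver the mitosis genes were higher on the KO array. Of the 40 genes, 35 were well above background on both liver arrays, and 24 of these 35 were at least 2-fold higher in KO liver, against 1.75% of 15568 measured genes. None of the 35 was at least 2-fold lower, against 0.886% of all, and all 35 ratios were above 0. The counts depended on the background treatment: 16 of 35 reached 2-fold with 50 added to the processed signal (0.976% of all genes), 10 with normexp (a model of signal plus background fitted to each array) and an offset of 50 (0.662%) and 11 with an offset of 0 (0.726%), and 30 of 35 were above 0 under either normexp setting. With the processed signal their median log2 ratio was 1.29, against -0.03 over all measured genes, and the ratios ran from 0.31 for Hmmr to 1.83 for Cdc20. By probe, 33 of 45 measured probes reached 2-fold, all 45 were above 0, and their range was 0.27 to 1.83. The values just inside the limit were Melk at 1.09 and Cdk1 at 1.11, and just outside lay Tpx2 at 1.998-fold and Anln at 0.98 (log2).

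**Figure D1:**
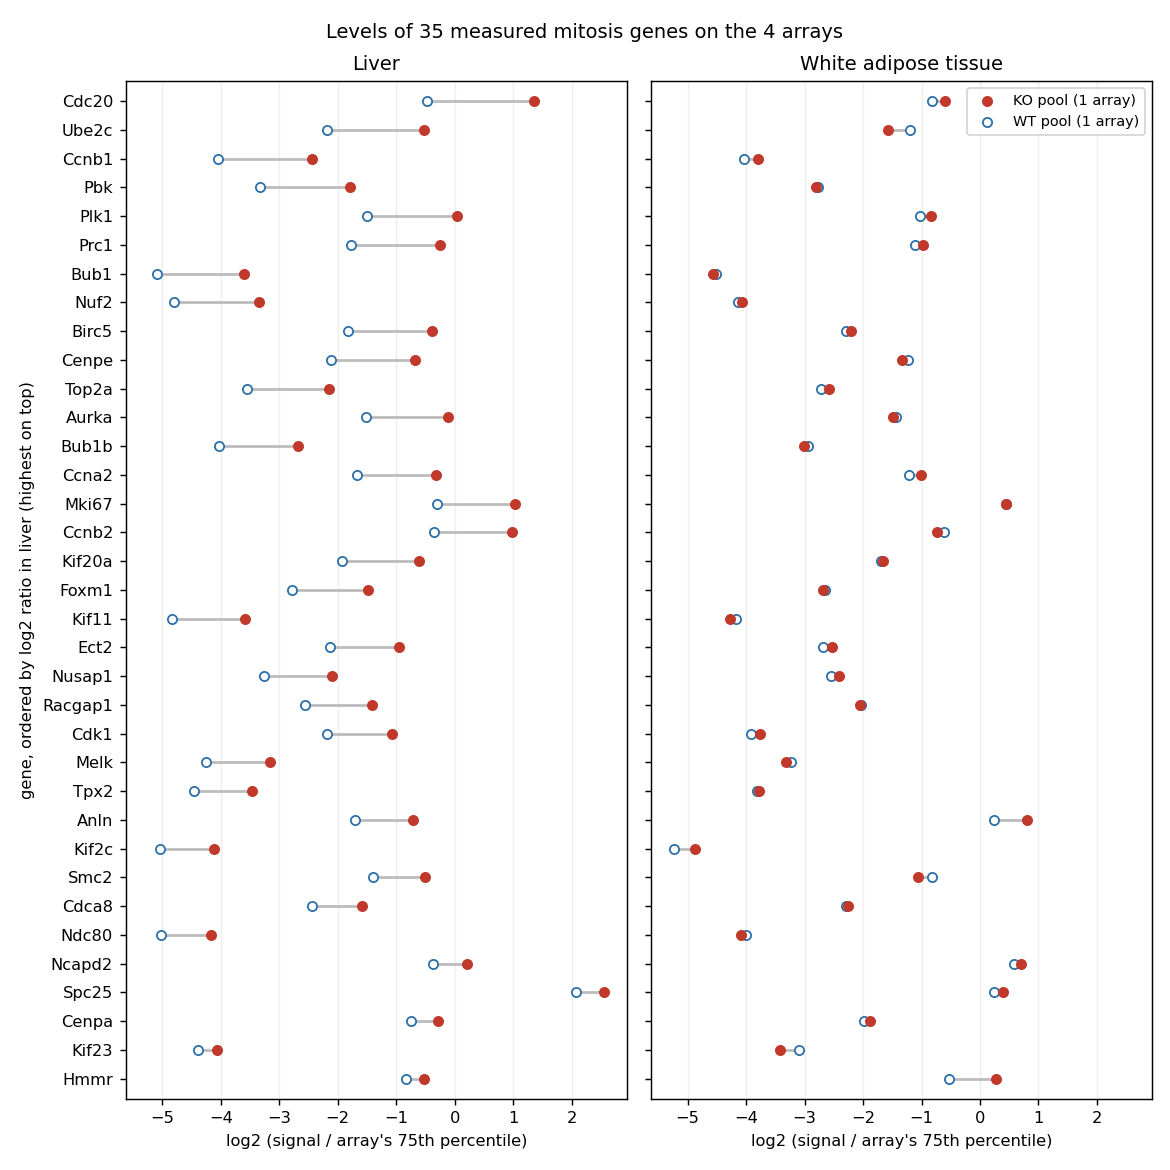
Levels of the 35 measured mitosis genes as log2 of the signal over the array's 75th percentile (x axis), with liver on the left and WAT on the right, 1 array per point. Filled points are KO pools and open points WT pools, and a grey line joins the pair. In liver each of the 35 filled points lies right of its open point, whereas in WAT 20 of 35 do. Levels of different genes come from different probes and are not comparable with each other.

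**Figure D2:**
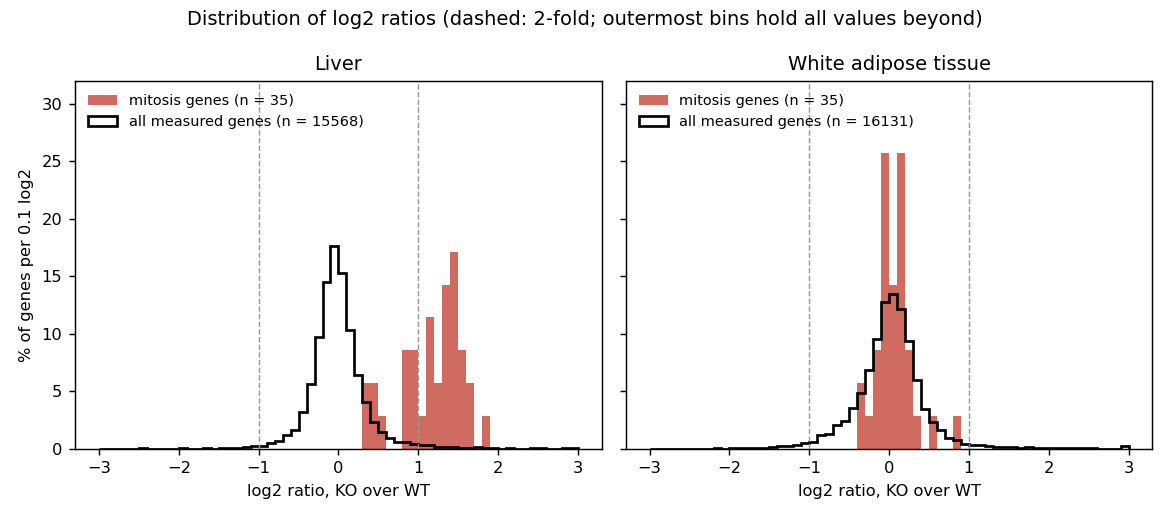
Distribution of the log2 ratio of KO over WT in steps of 0.1 (x axis) as a percentage of genes (y axis), in liver on the left and WAT on the right. Bars are the 35 measured mitosis genes, the outline is all measured genes (15568 in liver and 16131 in WAT), and dashed lines mark 2-fold. The bars lie to the right of the outline's centre in liver (median 1.29 against -0.03) and over it in WAT (0.04 against 0.02).

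The cyclins, Cdk1 and the cyclosome activators stood together. All 6 were at least 2-fold higher in KO liver, with a median of 1.48, and 4 of 6 (median 1.17) with normexp and offset 50. Cdc20, which activates the cyclosome at the start of anaphase, had a level of 1.35 (log2 relative to the array's 75th percentile, as for all levels here) in KO liver, against -0.48 in WT liver. That is a 3.54-fold higher signal, rank 51 of 15568 genes by ratio, with an error of 0.20 from the scanner software's model. The model takes the same multiplicative error of 0.1 on every array, so this value is not a spread seen between arrays. Ube2c, the E2 enzyme that hands ubiquitin to cyclosome substrates, had a level of -0.53 in KO liver, against -2.19 in WT liver, a ratio of 1.66, and its 2 probes gave 1.62 and 1.70. Ccnb1 (cyclin B1) was at -2.44 in KO liver, against -4.05 in WT liver. Its 3 probes gave ratios between 1.57 and 1.64 (mean 1.61, SD 0.04). With normexp and offset 50 the same probes gave 0.07, 0.14 and 1.18 (mean 0.46), so the gene's call was lost and its probes parted. Ccnb2 (cyclin B2) was at 0.99 in KO liver, against -0.35 in WT liver (ratio 1.33), and Ccna2 (cyclin A2), which acts from S phase into early mitosis, was at -0.32 against -1.67 (ratio 1.34). Cdk1, the kinase that these cyclins activate, had a smaller ratio of 1.11, with -1.08 in KO liver, against -2.18 in WT liver, and of 0.79 with normexp and offset 50.

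Cdk1 rested on 1 of its 3 probes in liver. That probe, at chr10:68801072-68801131 (mm9, minus strand), and a neighbour at chr10:68801053-68801112 share 41 of their 60 bases. The neighbour was not well above background on any array, with levels between -8.44 and -8.04. The parts shown are the bases that a probe with signal and a probe without do not share. The place of the shared run differs too, at the end of the probe with signal and at the start of the other.
Cdk1 probe with signal, bases 1 to 19: ttcttaatttcctacgtat
Cdk1 probe without signal, bases 42 to 60: tataattctgtatatgtgc
Both ends have a GC content of 26.3%, and both whole probes one of 18.3%. The third Cdk1 probe was well above background only in WAT, where its ratio was 0.36.

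Of the 8 kinases, 6 were measured in liver, and all 6 were at least 2-fold higher in KO liver, with a median of 1.44 and a range of 1.09 to 1.53. With normexp and offset 50, Plk1 (1.23) and Aurka (1.198) stayed past 2-fold, and Pbk (0.82), Bub1b (0.38), Melk (0.0039) and Bub1 (-0.063) did not. With the processed signal, Plk1, which drives centrosome maturation, mitotic entry and cytokinesis, had a level of 0.03 in KO liver, against -1.49 in WT liver (ratio 1.53). Pbk, a kinase phosphorylated by CDK1 in mitosis, was at -1.80 in KO liver, against -3.33 in WT liver (ratio 1.53). Aurka, the centrosome and spindle-pole Aurora kinase, was at -0.12 in KO liver, against -1.52 in WT liver (ratio 1.40). The checkpoint kinase Bub1 was printed as 10 spots, which gave a ratio of 1.48 ± 0.14 (SD over 10 spots of the same arrays, range 1.15 to 1.60). All 10 spots share a background treatment, and with normexp in its place the Bub1 ratio was -0.063, so the spread over spots is not the error of the ratio. Bub1b, the BubR1 subunit of the complex that holds CDC20 in check, had a ratio of 1.35, and Melk one of 1.09.

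Aurkb, the kinase of the chromosomal passenger complex, was not well above background on any of the 4 arrays. Ttk, which starts checkpoint signalling at kinetochores, was well above background in KO liver alone. Its measured levels were -5.35 in KO liver, against -7.19 in WT liver, and the bound was at least 1.41-fold higher in KO liver. To form such a bound, the bright value was divided by the dim array's detection floor or, where that was greater, by the dim value itself. The floor is the weakest signal that still counted as well above background on that array. Bounds were formed with the processed signal only, and not with normexp.

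Kinetochore and centromere genes differed less as a group: 3 of 7 measured genes reached 2-fold, and their median was 0.87 (1 of 7 and 0.39 with normexp and offset 50, where Cenpe stayed at 1.08). The 3 were the NDC80-complex subunit Nuf2 (ratio 1.45, on 1 of its 3 probes), Birc5 and the motor Cenpe, which carries chromosomes to the spindle equator (1.44). Birc5 (survivin, the passenger-complex subunit) had 1.45 over 3 probes between 1.38 and 1.48 (SD 0.06). Birc5 was at -0.38 in KO liver, against -1.83 in WT liver, and Cenpe at -0.68 against -2.12. Ndc80, which binds microtubules in the same complex as Nuf2, was at -4.16 in KO liver, against -5.02 in WT liver (0.86). Spc25, another subunit of that complex, was at 2.56 in KO liver, against 2.07 in WT liver (0.49). With normexp and offset 50 the order of these 3 subunits turned round, to 0.18 for Nuf2, -0.33 for Ndc80 and 0.56 for Spc25. Cdca8 (borealin) had 0.87, with probes at 0.85 and 0.89, and the centromeric histone Cenpa 0.46. Cenpf was not well above background on any array.

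Among spindle motors and microtubule proteins, 4 of 8 measured genes reached 2-fold, with a median of 1.08 (2 of 8 and 0.13 with normexp and offset 50). Prc1, which bundles the microtubules of the central spindle, was at -0.25 in KO liver, against -1.77 in WT liver (1.52). Kif20a and Prc1 were the 2 that stayed past 2-fold with that correction. The kinesins Kif20a, which works at the central spindle, and Kif11, which pushes spindle poles apart, had ratios of 1.32 and 1.25, and the microtubule-binding Nusap1 1.15. Kif23, the motor of the centralspindlin complex, had only 0.31, at -4.07 in KO liver, against -4.39 in WT liver, and -0.51 with normexp and offset 50. Racgap1, its partner in centralspindlin, had 1.14 with -1.42 in KO liver, against -2.56 in WT liver. The 2 ratios differed by more than the pooled SD between probes over all genes (0.20). Kif23 rests on 1 dim probe of its 2, however, and the spread between probes of dim genes varied. Its SD was 0.79 for Tpx2, 0.94 for Kif2c and 0.04 for Ccnb1. Hmmr, a spindle-associated hyaluronan receptor, was at -0.53 in KO liver, against -0.84 in WT liver (0.31).

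Dlgap5, a spindle protein that stabilises kinetochore fibres, was well above background in KO liver and not in WT liver. On 1 of its 2 probes the level was -3.79 in KO liver, against -5.97 in WT liver, a bound of at least 4.18-fold higher. The other probe was not well above background on any array and was at -6.35 in KO liver. The 2 probes of Tpx2, an activator of Aurora A at the spindle, disagreed. The probe at chr2:152719476-152719535 (mm9, plus strand), which begins at transcript base 2770, gave 1.55, and the probe at chr2:152720285-152720344, at base 3592, gave 0.44. Kif2c, a kinesin that depolymerises microtubules at centromeres, had the same split. Its probe at chr4:116832904-116832963 (mm9, minus strand; transcript base 2107) gave 1.59, and the probe at chr4:116832728-116832787 (base 2283) gave 0.27. With normexp and offset 50 the gene ratios were 0.026 for Tpx2 and -0.35 for Kif2c. In both genes the probe with the smaller ratio was the one nearer the transcript's 3′ end. The 2 Tpx2 bases are counted along different transcript records. The probes were also dim: in WT liver those of Tpx2 were at -3.49 and -5.45 and those of Kif2c at -5.36 and -4.73, in the order given. Which probe is nearer to the gene's mRNA level was not tested.

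Of the cytokinesis genes, Ect2, the exchange factor that activates RhoA at the cleavage furrow, had a ratio of 1.18 on 1 of its 2 probes. Racgap1 had 1.14 and the furrow scaffold Anln 0.98, and none of the 3 reached 2-fold with normexp and offset 50. For chromosome structure, 2 of 4 measured genes reached 2-fold. Top2a, which untangles replicated DNA, was at -2.15 in KO liver, against -3.56 in WT liver (1.41). Mki67, the Ki-67 antigen used to stain cycling cells, was at 1.03 in KO liver, against -0.31 in WT liver (1.34, with probes at 1.33 and 1.34). The condensin subunits had smaller ratios, 0.89 for Smc2 and 0.59 for Ncapd2. The subunit Ncapg was well above background in KO liver alone, at -5.66, against -6.27 in WT liver, a bound of at least 1.14-fold higher. Foxm1, the transcription factor of this programme, was at -1.49 in KO liver, against -2.77 in WT liver (1.29). Its ratio rests on 1 of its 2 probes and was 0.75 with normexp and offset 50. Of the chromosome structure genes, 1 of 4 (Mki67) stayed past 2-fold with that correction, and Top2a had 0.51.

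By rank with the processed signal, 7 mitosis genes were among the 100 genes with the highest liver ratios, 21 among the highest 200 and 26 among the highest 300. Of the 273 genes at least 2-fold higher in KO liver, the 24 mitosis genes made up 8.79%. The 24 were 68.6% of the 35 measured mitosis genes, whereas the 273 were 1.75% of all 15568 measured genes. With normexp and offset 50, 103 genes were at least 2-fold higher in KO liver, and 10 of them were mitosis genes.

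In WAT the same genes differed little between the genotypes. Again 35 were measured, and 0 of 35 were at least 2-fold higher in KO WAT, against 2.16% of 16131 measured genes, and 0 at least 2-fold lower, against 2.01%. The median ratio was 0.04, against 0.02 over all genes, 20 of 35 ratios were above 0, and 30 of 35 were within 0.25 of 0. Mki67 was at 0.45 in KO WAT, against 0.45 in WT WAT. Plk1 was at -0.85 in KO WAT, against -1.03 in WT WAT (0.19), and Cdc20 at -0.61 against -0.83 (0.22). Foxm1 had -0.04, Aurka -0.04 and Top2a 0.13, all smaller in size than the software's model error of about 0.2, which is not a measured spread. The 10 Bub1 spots gave -0.06 ± 0.14 (SD, range -0.29 to 0.19), so spots fell on both sides of 0.

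A few genes lay further out in WAT. Hmmr was at 0.28 in KO WAT, against -0.53 in WT WAT (0.81), Anln at 0.80 against 0.25 (0.55), and Kif2c at -4.88 against -5.24 (0.36). Ube2c was at -1.57 in KO WAT, against -1.197 in WT WAT (-0.37, with probes at -0.38 and -0.37), Kif23 at -3.42 against -3.10 (-0.32), and Smc2 at -1.06 against -0.82 (-0.24). Of the genes not measured there, Dlgap5 was well above background in WT WAT alone, at -5.75 in KO WAT, against -5.53 in WT WAT, and at least 1.16-fold lower in KO WAT. Ncapg was likewise above background in WT WAT alone, at -6.00 on both arrays. Aurkb, Cenpf and Ttk were not well above background on either WAT array.

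Set side by side, the liver ratio exceeded the WAT ratio in 34 of 35 genes, and Hmmr was the exception (0.31 in liver and 0.81 in WAT). The gap between the ratios reached 2-fold in 24 of 35 genes, against 4.63% of 14896 genes measured in both tissues. Its median was 1.28, against -0.05 over all genes. With normexp and offset 50 the liver ratio exceeded the WAT ratio in 27 of 35 genes, a gap of 2-fold was left in 9, and the median gap was 0.42. Ube2c had the widest gap, 2.03, and Cdc20 had 1.60. Top2a was the gene at the median.

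**Figure D3:**
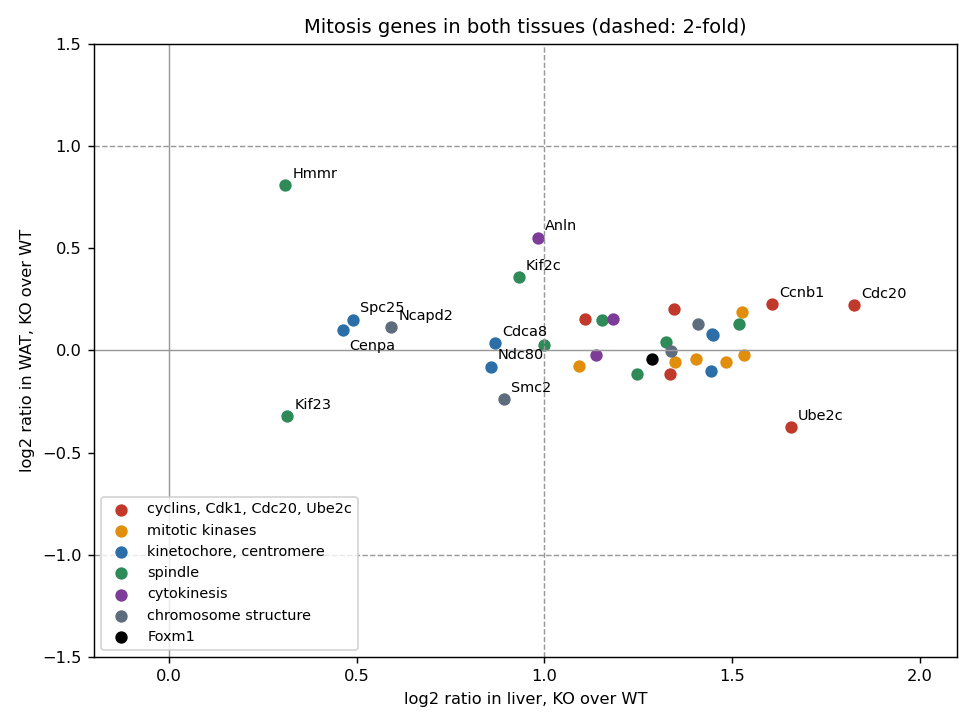
Log2 ratio of KO over WT in liver (x axis) and in WAT (y axis) for the 35 measured mitosis genes, coloured by role, 1 pair of arrays per tissue. Dashed lines mark 2-fold. Most points lie right of the dashed vertical line and close to the horizontal line at 0, with Hmmr (0.31 and 0.81) at the upper left and Ube2c (1.66 and -0.37) at the lower right.

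The tissues were also compared within each genotype. Between the KO arrays, 13 of 35 mitosis genes were at least 2-fold lower in WAT than in liver, against 13.7% of 15338 genes, and 1 was higher, against 17.7%. The median WAT over liver ratio was -0.72, against 0.14 over all genes. The 13 included Spc25 (0.39 in KO WAT, against 2.56 in KO liver, ratio -2.17), Cdc20 (-0.61 against 1.35, ratio -1.96), Birc5 (-2.21 against -0.38, ratio -1.83) and Ccnb2 (-0.73 against 0.99, ratio -1.72). Between the WT arrays, 2 of 35 were at least 2-fold lower in WAT, against 15.6% of 15305 genes, and 5 were higher, against 18.1%. The median was 0.55, against 0.04 over all genes, and turned to -0.045 with normexp and offset 50 (-0.21 over all genes) and to -0.028 with offset 0 (-0.23). The 2 lower genes were Spc25 (0.24 in WT WAT, against 2.07 in WT liver) and Cenpa (-1.98 against -0.75). The 5 higher ones were Anln, Kif23, Bub1b, Ndc80 and Melk. Anln, the gene higher in WAT than in liver between the KO arrays as well, was at 0.25 in WT WAT, against -1.70 in WT liver (1.95), and at 0.80 in KO WAT, against -0.72 in KO liver (1.51). These comparisons share arrays with those between genotypes and are no further support for them. After quantile normalization the 5 became 2, and after cyclic loess 1, whereas the liver count between genotypes stayed at 24 under both. With normexp both counts fell, as given under the dependence on processing.

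Other genes of the cell cycle were read from lists of the same roles. Of 67 further mitosis genes, 55 were measured in liver, with a median of 1.01 with the processed signal. Of these, 29 were at least 2-fold higher in KO liver and 0 lower, against 1.75% and 0.886% of all measured genes. Mastl, a kinase that keeps the phosphatase PP2A off during mitosis, had 1.89, the spindle-pole protein Aspm 1.70, the chromokinesin Kif4 1.64 and Ckap2l 1.60. In WT liver they were dim, at -4.87, -3.70, -5.66 and -4.85 in that order. Of the 12 probes of the 40 mitosis genes below -4 there, 0 reached 2-fold with normexp and offset 50. Cep55, a midbody protein, had the lowest value, -0.84. Psrc1 and Fam83d were well above background in KO liver alone, with bounds of at least 3.02-fold and 2.92-fold higher. In WAT 60 of these genes were measured, 0 reached 2-fold in either direction, and the median was 0.02.

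S-phase genes differed less. Of 31, 29 were measured in liver, again with the processed signal only. Of these, 8 were at least 2-fold higher in KO liver, against 1.75% of all measured genes. None was at least 2-fold lower, and the median was 0.64. Uhrf1, which keeps DNA methylation through replication, had 1.58, the replicative helicase subunits Mcm2 and Mcm5 had 1.41 and 1.40, and Tk1 (thymidine kinase) had -0.65. The origin-licensing factor Cdc6 was above background in KO liver alone, with a bound of at least 4.61-fold higher. In WAT 30 were measured, 0 reached 2-fold, and the median was -0.09. Together the mitosis genes and these 2 lists held 61 of the 273 genes at least 2-fold higher in KO liver with the processed signal (22.3%). The 61 were 51.3% of the 119 measured genes of the 3 lists, whereas the 273 were 1.75% of all 15568 measured genes.

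Upstream of these, 17 of 17 transcription regulators of the E2F, Rb, MuvB, Myb and Myc families were measured. Of these, 2 were at least 2-fold higher in KO liver (E2f8 1.21 and Myc 1.02), against 1.75% of all measured genes. None was at least 2-fold lower, against 0.886%, and the median was 0.23. The lists of this paragraph were read with the processed signal only. At such shares a short list would hold few or no such genes, so counts of 0 below say little. E2f1 had 0.95 and Mybl2 (B-Myb, the MuvB partner in S phase and G2) -0.29. Of 6 G1 cyclins and their kinases, 0 reached 2-fold in liver (median 0.19), with Ccnd1 (cyclin D1) at 0.87. Of 5 measured CDK inhibitors 0 reached it (median 0.10), with Cdkn1a (p21) at 0.82 and Cdkn1c (p57) at -0.47. Of 11 measured p53 targets 0 reached it (median 0.19), with Btg2 at 0.69 and Tnfrsf10b at 0.68. The 12 measured core subunits of the cyclosome, the complex that Cdc20 and Ube2c serve, had a median of 0.03, 0 reached 2-fold, and Anapc11 had the largest ratio, 0.54. In WAT the regulators had a median of 0.00, the CDK inhibitors -0.18, the p53 targets -0.22 and the cyclosome core 0.07. In each of these lists 0 genes were past 2-fold, against 2.16% higher and 2.01% lower over all genes. Among the G1 genes of WAT, Cdk6 had 1.34 and Ccnd1 -1.18.

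**Figure D4:**
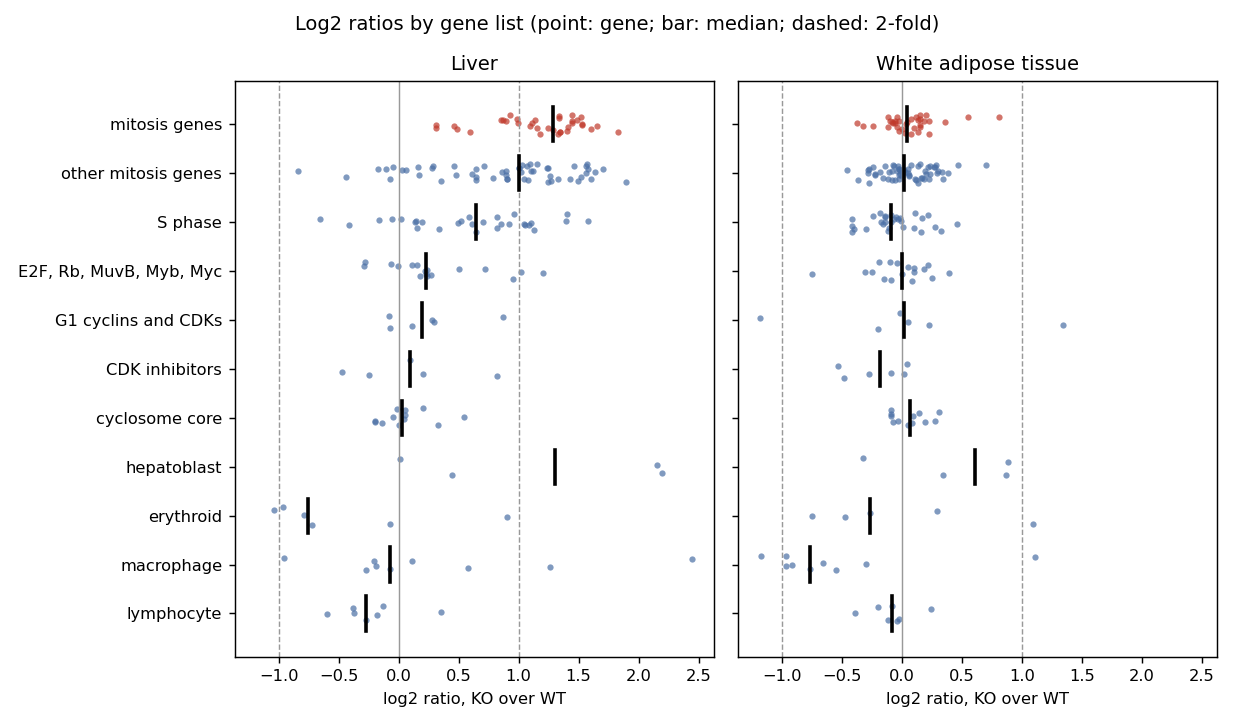
Log2 ratio of KO over WT (x axis) for the mitosis genes, other cell-cycle lists and cell type markers (rows), in liver on the left and WAT on the right. Each point is a gene, each bar the median of its list, and dashed lines mark 2-fold. In liver the cell-cycle medians run from 1.29 for the mitosis genes to 0.03 for the cyclosome core, and in WAT the cell-cycle medians lie between -0.18 and 0.07.

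Markers of cell types moved as well in liver, and their part in the result was not tested. Of 5 hepatoblast markers 4 were measured, with a median of 1.30, and their summed level (in units of the 75th percentile) was 3.44 in KO liver, against 1.07 in WT liver. Afp (alpha-fetoprotein) was at 0.54 in KO liver, against -1.65 in WT liver (2.19), and H19 had 2.15, whereas Dlk1 had 0.44 and Gpc3 0.01. Igf2 was above background in KO liver alone, with a bound of at least 1.46-fold higher. All 14 hepatocyte markers were within 2-fold, with a median of -0.28 and a summed level of 1596 in KO liver, against 1917 in WT liver.

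Markers of blood cells were read in the same way. Of 9 erythroid markers 6 were measured, with a median of -0.75 and a summed level of 80.3 in KO liver, against 94.9 in WT liver. Klf1 (-1.04) and Slc4a1 (-0.96) were lower and Tfrc (transferrin receptor, 0.90) higher in KO liver. The 7 measured lymphocyte markers had a median of -0.27 and summed to 1.90 in KO liver, against 2.06 in WT liver. Of 10 macrophage markers 9 were measured, with a median of -0.07 and a sum of 17.5 in KO liver, against 18.4 in WT liver. Of these, Trem2 had 2.45, Itgax 1.26 and Cd163 -0.96, and Gpnmb was at least 8.61-fold higher in KO liver. Biliary markers had a median of -0.20 and summed to 1.11 in KO liver, against 1.25 in WT liver. Endothelial and stellate markers had a median of 0.22 and summed to 24.9 in KO liver, against 20.8 in WT liver. Of the summed levels given here, those of the hepatoblast list and of the endothelial and stellate list were higher in KO liver. Those of the erythroid, lymphocyte, macrophage, biliary and hepatocyte lists were lower. A sum is carried by the brightest genes of its list, and Gpnmb, given as a bound, is not in the macrophage sum.

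In WAT the levels of cell type markers differed between the pools, while the mitosis genes did not reach 2-fold. All 9 skeletal muscle markers were at least 2-fold higher in KO WAT, with a median of 4.28 and a summed level of 49.7 in KO WAT, against 3.58 in WT WAT. All 6 brown fat markers were higher too, with a median of 2.30. The 9 measured macrophage markers had a median of -0.77, the 13 hepatocyte markers -1.002 and the 9 adipocyte markers 0.17. What these differences contribute to the small ratios of the mitosis genes in WAT was not tested.

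The size of the liver difference depended on how background was treated, and the dependence fell on dim probes. With normexp background correction and an offset of 50, fitted to mean and local background signals in place of the software's processed signal, 10 of 35 mitosis genes reached 2-fold, against 0.662% of all genes. The members' median was then 0.71, against -0.19 over all genes. The 10 were Ccna2, Ccnb2, Cdc20, Ube2c, Plk1, Aurka, Cenpe, Kif20a, Prc1 and Mki67, and they reached 2-fold under each of the 11 alternative settings run. For the 17 probes at or above -2 in WT liver, the median ratio was 1.097 with this correction and 1.33 with the processed signal, and 10 reached 2-fold both ways. For the 16 probes from -4 to -2 it was 0.80, with 4 past 2-fold, against 1.43 and 15 with the processed signal. For the 12 probes below -4 it was -0.04, with 0 past 2-fold, against 1.30 and 8. Over all 4720 probes below -4 in WT liver, the median was -0.76 with this correction and 0.02 with the processed signal.

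The 153 negative control spots, which carry no mouse target, had a mean signal above local background of 39.0 in KO liver, against 32.2 in WT liver, before any correction. In WAT it was 51.4 in KO WAT, against 43.6 in WT WAT, a gap of similar size. In the processed signal, the median of these spots was 6.29 in KO liver, against 6.20 in WT liver. It was 7.18 in KO WAT, against 5.55 in WT WAT. For Kif11 (1.245), a dim gene, normexp with offset 50 gave -0.024. For Cdc20 (1.83) and Mki67 (1.34), both brighter, it gave 1.75 and 1.30. In WAT all 35 genes were within 2-fold under all 11 settings that keep this limit.

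**Figure D5:**
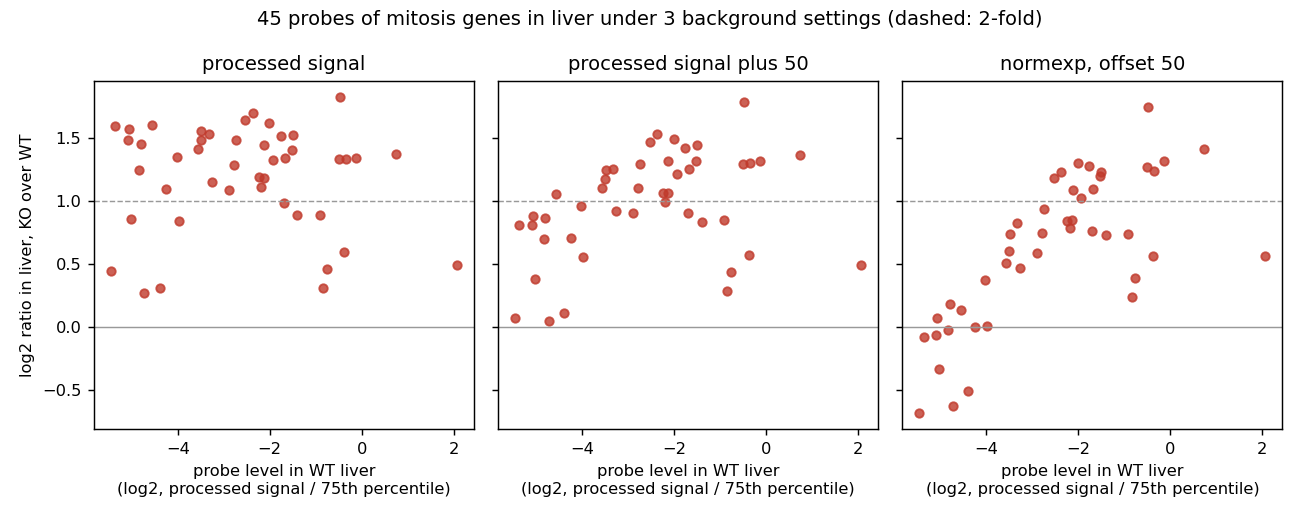
Log2 ratio of KO over WT in liver (y axis) against the level in WT liver (x axis, log2 of the processed signal over the 75th percentile) for 45 probes of mitosis genes, with the processed signal on the left, the processed signal plus 50 in the middle and normexp with offset 50 on the right. Dashed lines mark 2-fold. Probes at or above -2 keep a median ratio of at least 1.097 in all 3 panels, and the 12 probes below -4 have medians of 1.30, 0.76 and -0.04.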

How the data were processed

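The deposited intensities come from Agilent Feature Extraction, version 11.0.1.1, per the file headers and, for the version, the submitters' processing notes. The processed signal used here is background-subtracted and was not normalized between arrays, so small offsets move the ratios of dim probes. The authors' table, of linear signal ratios, was found by comparison with the scanner files to be that signal divided by 1 constant per array (1764 for KO liver, 1470 for WT liver, 1613 for KO WAT and 1690 for WT WAT), with no centring. Its column medians were 0.0751, 0.0737, 0.0875 and 0.0876 in that order. It was used as an alternative.

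From the deposited intensity, the log2 processed signal was taken relative to the 75th percentile of the array's non-control spots. Outlier spots were left out and spots of a probe averaged. A probe counted as measured in a comparison if, on each of the arrays compared, over a 0.5 share of its spots lay well above background. Measured probes of a gene were averaged. Levels are log2 values relative to that percentile. Probes of other genes were renamed through a RefSeq table of the GRCm38.p6 assembly, by accession (27234), symbol (3576) or synonym (565), and 8054 probes kept no symbol. Probe coordinates in the files are on mm9.

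No test was made on 1 array per group, and all comparisons are descriptions of these pools. Named genes were all 40 members, up to 4 genes of each other list with the largest ratios, up to 2 with a bound of at least 2-fold, and Pnpla7. Igf2, and the further genes named beside their list's count, were picked out with their values in view. The members and lists were chosen with earlier results of these data known. Alternatives covered background correction (limma 3.58.1 under R 4.3.3), normalization, filters, probe choice and a 1.5-fold limit. The steps were tested on simulated data. Python 3.11.15 with pandas 2.3.3 and numpy 2.4.6 was used.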

Additional observations from a re-analysis of the deposited data

Results flagged for a closer look

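In 3 genes the liver and WAT ratios had opposite signs, each larger than the spread between probes (0.20 in liver and 0.23 in WAT). With 1 array per group the difference between tissues was not tested. The share of all genes that meet this rule was not computed. Ube2c had a ratio of 1.66 in liver and -0.37 in WAT. Smc2, a condensin subunit with 1 probe, had 0.89 in liver and -0.24 in WAT, only just past the spread. Kif23 had 0.31 in liver and -0.32 in WAT, and its WAT ratio was 0.26 without the filter on dim probes. With normexp its liver ratio was -0.51 (offset 50) and -0.63 (offset 0), of the same sign as in WAT.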

How the results depend on the processing

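No paired analysis was possible because each group had 1 array. Of the counts and medians given for the mitosis genes as a group, 125 stayed close under the alternatives (counts within 1.5 times, medians within the spread between probes) and 15 moved. Those that stayed close include the liver count of 16 with 50 added and the WT WAT over WT liver median (0.55), which turned to -0.045 and -0.028 with normexp. Some settings could hardly change anything, yet add to these 125 and to the single ratios below. The authors' table is the same signal over nearly the same percentile, and keeping outlier spots left the members' counts and medians unchanged. The count at least 2-fold higher in KO liver (24) was 10 with normexp and offset 50 and 11 with offset 0, against 0.662% and 0.726% of all genes. The liver median (1.29) was 0.71 and 0.77 under these, and 0.99 with 50 added to the processed signal. It was 1.21 after quantile normalization and 1.27 after cyclic loess, with 24 genes past 2-fold in both. At a limit of 1.5-fold, 1 gene was higher in KO WAT (0 at 2-fold), against 6.19% of all genes. Between WT WAT and WT liver, the 5 higher genes became 1 with normexp (offset 50 or 0, against 11.9% and 12.7% of all genes), with 50 added (15.3%) or with cyclic loess (16.2%), 2 with quantile normalization (17.2%) and 15 at 1.5-fold (27.4%). Between KO WAT and KO liver, the 13 lower genes became 8 with normexp and offset 50 (11.7%) and 23 at 1.5-fold (20.4%), and the 1 higher gene became 3 at 1.5-fold (28.3%). Of single ratios, 699 stayed close, 68 moved and, among genes past 2-fold, 3 reversed: Bub1 in liver was -0.063 with offset 50 and -0.035 with offset 0, and Kif11 in liver -0.024 with offset 50. Below 2-fold, Ndc80 turned to -0.33 and -0.39 (offset 50 and 0), Kif2c to -0.35 and -0.43, Kif23 to -0.51 and -0.63, and Tpx2 to -0.022 (offset 0), so 6 genes turned sign in liver. Of the 35 genes, 29 had a liver ratio above 0 under every setting run, and 14 of the 24 fell below 2-fold with offset 50. Both normexp settings lower the median of all genes, to -0.19 and -0.20. They lower that of all 4720 probes below -4 in WT liver further, to -0.76 and -1.01. The signs given here are read against 0 and not against that shift of dim probes. Signal over background limits the dim genes, and the number of arrays limits all of them.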
